A study of Mus musculus with 42 samples.

Results

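In mouse liver, 1088 stretches of 100 kb were in a lamina-associated domain (LAD) in both libraries at circadian time CT24 and in neither library at CT30. Only 166 stretches went the other way. These 1088 lost and 166 gained bins were chosen from 24620 full 100-kb bins of the 19 autosomes of mm10. A bin counted as in a LAD of a library when 50 kb or more of it was covered. A bin was lost when it was called in both CT24 libraries and in neither CT30 library, and gained in the reverse case. Lost bins made up 4.42% of all bins and gained bins 0.674%. These shares are the background for every count of bins given here, and since the calls themselves define the bins, no test was applied to them. Lost bins add up to 108.8 Mb and gained bins to 16.6 Mb.

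The nuclear lamina is a meshwork of A-type and B-type lamins that lines the inner side of the nuclear envelope. LADs are long, gene-poor and A/T-rich stretches of chromatin that touch this meshwork, and most genes in them are silent. In liver such domains typically hold genes of other tissues, among them large receptor families of sensory neurons. Lamin B1 (LMNB1) is a B-type lamin widely used to map LADs, because it stays mostly at the nuclear periphery.

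LADs came from chromatin immunoprecipitation with an antibody against LMNB1 and sequencing (ChIP-seq), 1 library per mouse, with 14 libraries in the series. The livers were from wild-type C57Bl/6 mice. They were kept without food for 24 h and fed again from CT0, when the lights came on at 6 a.m. Mice of the CT24 group were killed after 24 h (2 libraries) and mice of the CT30 group after 30 h (2 libraries), so CT30 falls 6 h into the next light phase. The labels call the mice female in the source and gender fields and male in the growth protocol, and the study's methods give male. Replicate numbers are those of the sample titles. The deposited names of NS replicate 2, CT0 replicate 2 and CT12 replicate 1 carry the number 3 in their place. The other 10 libraries are pairs from non-synchronized (NS) mice, which were not fasted, and from CT0, CT6, CT12 and CT18. Whole liver pieces were used, so a LAD is an average over all cell types of the piece. The deposited LADs have a start and an end but no score and no read count. How deeply each library was sequenced is therefore unknown, and LADs carry no interval for counting error.

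Each library's LADs start on a regular grid. Its spacing, the grid step, was read as the greatest common divisor, in kb, of the start positions that fall on whole kb. The CT24 libraries had steps of 14 kb (replicate 1) and 18 kb (replicate 2), and the CT30 libraries of 31 kb (replicate 1) and 46 kb (replicate 2). Every CT30 library thus had a coarser grid than every CT24 library, and grid step and time point cannot be told apart in this comparison. Values that bear on the grid step are given beside the results below.

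A few promoters from domains that were lost whole are shown first, to give the reader the DNA at gene starts inside such domains. They were chosen after the domains were known, for a hormone gene, a globin gene and an axon guidance gene. Each run holds the 250 bases before the RefSeq start site on GRCm38.p6, 5′ to 3′ on the gene's strand. Capitals mark matches on either strand to TATAAA, the core of a TATA box, and to CCAAT, a motif of many promoters. Overlapping matches are merged in 1 run of capitals.
Prl, chr13:27057320-27057569, plus strand: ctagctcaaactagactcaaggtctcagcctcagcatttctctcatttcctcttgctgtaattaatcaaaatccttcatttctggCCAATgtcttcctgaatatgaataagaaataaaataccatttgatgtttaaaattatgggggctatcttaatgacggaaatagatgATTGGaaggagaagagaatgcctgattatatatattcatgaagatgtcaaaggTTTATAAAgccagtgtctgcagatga
Hbb-bs, chr7:103827929-103828178, minus strand: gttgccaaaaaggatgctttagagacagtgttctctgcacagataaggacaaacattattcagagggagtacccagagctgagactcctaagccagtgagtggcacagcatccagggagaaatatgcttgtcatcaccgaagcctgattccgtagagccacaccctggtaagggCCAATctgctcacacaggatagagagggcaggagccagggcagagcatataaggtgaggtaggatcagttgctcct
Slit2, chr5:47982905-47983154, plus strand: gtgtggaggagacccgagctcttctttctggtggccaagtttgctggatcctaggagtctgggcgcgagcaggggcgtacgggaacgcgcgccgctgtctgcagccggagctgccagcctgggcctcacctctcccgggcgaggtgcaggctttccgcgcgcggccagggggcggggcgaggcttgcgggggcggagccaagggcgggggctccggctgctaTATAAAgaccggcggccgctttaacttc
GC content was 35.2% before Prl, 50.8% before Hbb-bs and 69.6% before Slit2, so the lost domains held both A/T-rich and G/C-rich promoters. TATAAA began 24 bases before the Prl start and 28 bases before the Slit2 start, and CCAAT began 76 bases before the Hbb-bs start. Of the 15687 promoters of autosomal protein-coding genes that the promoter table holds, 12.0% had TATAAA and 35.7% had CCAAT in the same window. Of the 447 genes that started in lost bins, 364 had a promoter in the table, with a median GC content of 38.8%, and 31.6% of these held TATAAA and 34.1% CCAAT. Without olfactory receptor genes, 179 of 220 had a promoter, with a median GC content of 46.4%. Of these 179, 21.2% held TATAAA and 39.1% CCAAT. The Hbb-bs and Slit2 promoters shown are thus richer in G/C than the median of either set. Over the 15687 autosomal promoters the median GC content was 56%, so Hbb-bs lay below that median and Slit2 above it. Promoters of kept bins were not compared, so these shares are not shown to be particular to lost bins. A match is a run of letters, not a measured binding site.

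LAD coverage was lower at CT30 than at CT24 in both libraries. Autosomal LADs covered 631 Mb and 518 Mb in CT24 replicates 1 and 2, and 395 Mb and 388 Mb in CT30 replicates 1 and 2. The means were 575 ± 80.0 Mb at CT24 and 392 ± 4.98 Mb at CT30 (SD, n = 2), a difference of -183 Mb. The groups did not overlap, and the exact two-sided permutation test gave p = 0.333, the smallest value that 2 libraries against 2 can give (Benjamini-Hochberg adjusted over 3 measures, 0.5). LADs were fewer as well, 184 and 177 at CT24 against 134 and 125 at CT30 (difference -51, exact permutation p = 0.333, adjusted 0.5). Median LAD size was 2.62 Mb and 2.18 Mb at CT24 and 2.50 Mb and 2.48 Mb at CT30, so the CT30 values lie between those of CT24. On the log2 scale the size difference was 0.06 (exact permutation p = 1, adjusted 1).

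Bins called in both CT24 libraries numbered 4750, and they form 159 runs, called CT24 domains here. Of these bins, 1088 (22.9%) were lost, 2662 (56.0%) were called in both CT30 libraries and are called kept, and 1000 were called in 1 CT30 library. Of the last, 396 were called in replicate 1 and 604 in replicate 2 of CT30. Bins called in both CT30 libraries numbered 3074, of which 166 (5.40%) were gained. CT24 replicate 1 had 1568 bins that replicate 2 lacked, and replicate 2 had 432 that replicate 1 lacked. For CT30 these numbers were 881 and 805. The count of lost bins is therefore smaller than the spread between the CT24 libraries alone, but unlike that spread it counts bins on which the libraries of each time point gave the same call. The series lists 1 input (control) sample per time point. The 2 libraries of a time may share that control, so their agreement may not be fully independent. With a library left out, the lost bins numbered 2240 without CT24 replicate 2 and 1692 without CT30 replicate 2. Gained bins then numbered 302 and 276 without CT24 replicates 1 and 2, and 448 without CT30 replicate 2.

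Most lost bins lay far from the threshold of 50 kb. In 1016 (93.4%) every base was covered in both CT24 libraries, and in 1042 (95.8%) no base was covered in either CT30 library. Both held for 980 lost bins (90.1%). LADs were mostly much longer than 100 kb, so a bin away from LAD ends is covered wholly or not at all. These shares thus do not measure how strong the loss is. The lost bins nearest to the threshold had 50 kb covered in a CT24 library or 48 kb in a CT30 library. The nearest bins outside had 50 kb in a CT30 library or 48 kb in a CT24 library.

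Among the 6 steps between consecutive times, CT24 to CT30 had the most lost bins. From NS to CT0, 69 bins were lost and 166 gained, and from CT0 to CT6, 135 were lost and 225 gained. From CT6 to CT12 the counts were 178 lost and 341 gained, and from CT12 to CT18 they were 73 and 276. From CT18 to CT24, 236 bins were lost and 111 gained. As a share of the bins called in both libraries of the earlier time, the lost bins made up 2.67, 3.98, 4.09, 1.47 and 4.57% in these 5 steps and 22.9% from CT24 to CT30. More bins were gained than lost in the steps up to CT18, and more lost than gained in the steps after it. The step from CT24 to CT30 is also the only step in which both libraries of the later time had a coarser grid than both libraries of the earlier time.

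**Figure D1:**
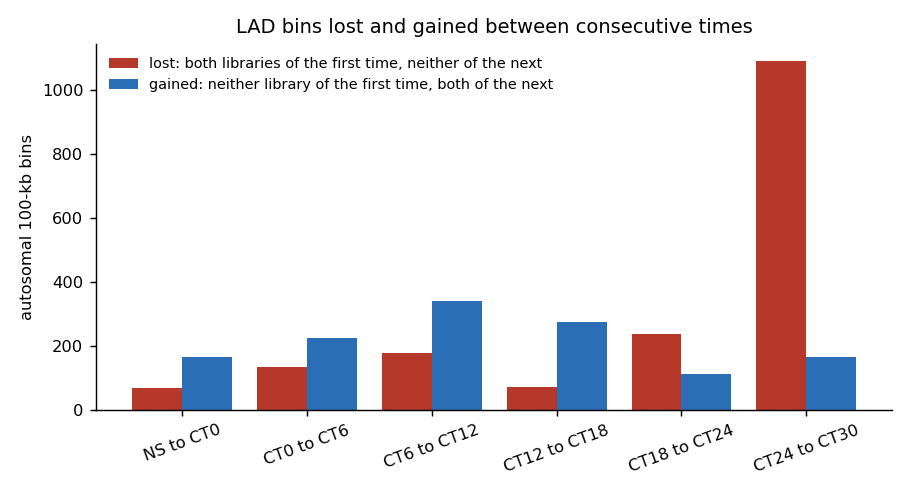
Number of autosomal 100-kb bins (y axis) lost (red) and gained (blue) between consecutive times (x axis), each from 2 libraries per time. From CT24 to CT30, 1088 bins were lost and 166 gained, while the other steps lost between 69 and 236.

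Whole domains and ends of domains accounted for similar numbers of lost bins. Of the 159 CT24 domains, 39 (24.5%) were lost whole, with 537 bins or 49.4% of all lost bins. Another 56 were shortened at an end, with 547 bins or 50.3% of lost bins. A single domain lost 4 bins inside and none at its ends. The other 63 had no lost bin. Of these 63, 4 were uncovered in CT30 replicate 1 and 7 in CT30 replicate 2. A bin counts as lost only when neither CT30 library called it. Domains classed as shortened can therefore also be absent from 1 CT30 library. For example, chr17:57500001-62200000 was covered at 0% in CT30 replicate 1 and 59.9% in CT30 replicate 2. For chr9:91300001-94000000 these values were 36.7% and 0%. Without CT24 replicate 2, the number lost whole was 64. Domains lost whole had a median length of 1.2 Mb (0.4 to 3.9 Mb), shortened domains of 2.95 Mb (1.2 to 17.4 Mb) and domains with no lost bin of 2.4 Mb (0.2 to 11.5 Mb).

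Short domains were lost whole more often than long ones. Among 17 domains under 1 Mb, 12 were lost whole, and 71.5% of their bins were lost. Among 52 domains of 1 to 2 Mb, 18 were lost whole (34.4% of bins), and among 64 domains of 2 to 5 Mb, 9 were (22.8% of bins). Of the 26 domains of 5 Mb or more, 0 were lost whole, and 15.3% of their bins were lost. The shortest LAD was 0.218 Mb in CT30 replicate 1 and 0.736 Mb in CT30 replicate 2, with LADs at most 2 kb apart joined. None of the 39 domains was shorter than the first value and 8 were shorter than the second. LADs under 1 Mb were few in all 4 libraries, 14 and 25 at CT24 and 12 and 7 at CT30, and the 10th percentile of LAD size was 1.08 Mb and 0.914 Mb at CT24 and 1.09 Mb and 1.29 Mb at CT30. Whether LAD size limits of the calling bear on the loss was not tested.

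**Figure D2:**
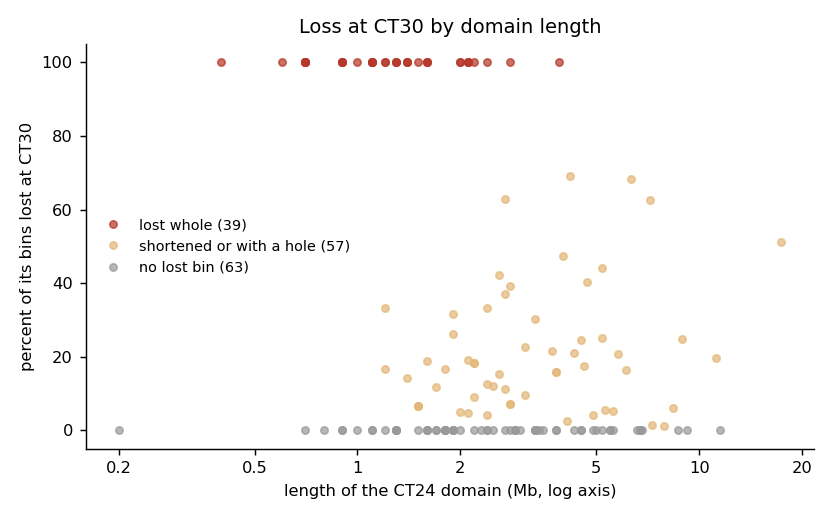
Percent of the bins of each CT24 domain lost at CT30 (y axis) against domain length in Mb (x axis, log scale), 1 point per domain, coloured by class. The 39 domains lost whole lie between 0.4 and 3.9 Mb, and no domain of 5 Mb or more is among them.

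Shortening was counted at 72 domain ends, 27 at the end with the lower coordinate and 45 at the end with the higher coordinate. Of the 56 shortened domains, 40 lost bins at 1 end and 16 at both ends. The median loss was 0.3 Mb at either kind of end, and 16 of the 72 ends lost a single bin. The longest lost ends measured 4.4 Mb at a lower and 5.1 Mb at a higher coordinate. Ends accounted for 486 lost bins, and 65 lost bins lay inside 4 domains, away from their ends.

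Lost bins were mostly not next to a remaining LAD. Of the 1088, 676 (62.1%) were more than 1 Mb from any LAD of either CT30 library, 115 were within 0.1 Mb, and the median distance was 1.75 Mb. The farthest lost bin was 53.2 Mb away. Of the 39 domains lost whole, 34 were more than 1 Mb from a CT30 LAD, with a median of 3.95 Mb, and 0 shared a base pair with one.

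The chromosomes differed in how much they lost. Chromosome 10 lost 110 of 237 CT24-domain bins (46.4%), chromosome 14 lost 104 of 261 (39.8%), chromosome 3 lost 71 of 209 (34.0%) and chromosome 16 lost 68 of 210 (32.4%). Chromosome 4 had the most lost bins, 129 of 426. At the other end, chromosome 18 lost 4 of 138 (2.90%), chromosome 1 lost 16 of 402 (3.98%), chromosome 15 lost 9 of 195 (4.62%) and chromosome 6 lost 24 of 340 (7.06%). A low count of lost bins does not mean that the rest were kept. On chromosome 18, 58 bins were called in 1 CT30 library and 76 were kept, and on chromosome 1 these numbers were 105 and 281. On chromosome 15 they were 4 and 182, and on chromosome 6 they were 38 and 278. On chromosome 10 the libraries called 311 and 283 bins at CT24 and 122 and 119 at CT30. On chromosome 15 they called 259 and 196 at CT24 and 251 and 189 at CT30, so the CT30 values there lie within or just under the CT24 range. Domains lost whole lay on 15 of the 19 autosomes, 6 on chromosome 5 and 5 on chromosome 10, with 0 on chromosomes 1, 6, 18 and 19. The bins of a chromosome belong to few domains and are not replicates, so no test was run on these shares.

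**Figure D3:**
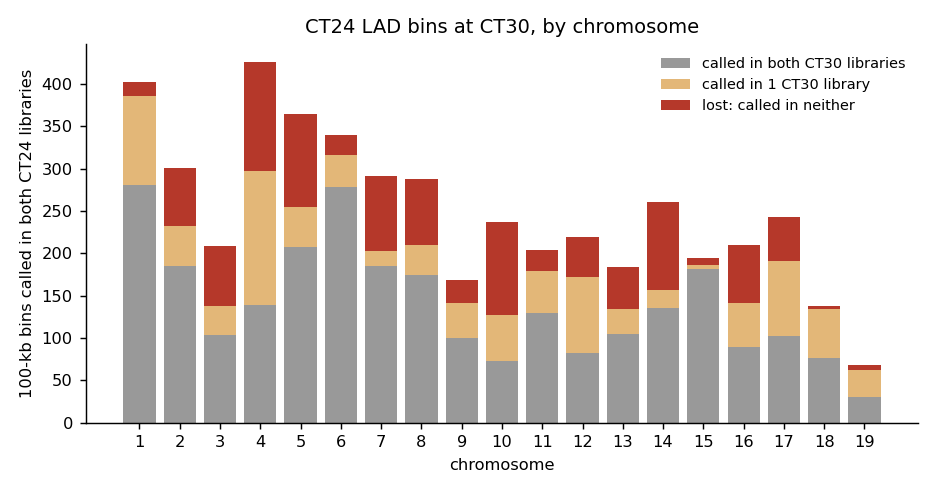
Bins called in both CT24 libraries (y axis) on each autosome (x axis), divided into those called in both CT30 libraries (grey), in 1 (tan) and in neither (red, lost). Chromosomes 10 and 14 lost 46.4% and 39.8% of these bins, and chromosomes 18 and 1 lost 2.90% and 3.98%. On chromosome 18, 58 bins were called in 1 CT30 library and 76 in both.

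In GC content the lost bins lay close to the kept ones. Median GC content was 37.7% in lost bins and 37.2% in kept bins, against 41.4% over all bins. Repeat-masked bases made up a median of 38.6% of lost bins, 43.6% of kept bins and 31.7% of all bins. Gained bins had a median GC content of 42.9% and a median repeat-masked share of 46.1%. Of lost bins, 13.0% lay within 20 Mb of the chromosome start and 9.10% within 20 Mb of its end, against 15.4% of all bins at either. For kept bins these shares were 15.1% and 10.0%, and for gained bins 27.7% and 4.82%.

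Lost bins held 447 start sites of protein-coding genes, or 4.11 per Mb. Kept bins held 699 (2.63 per Mb), gained bins 118 (7.11 per Mb) and all autosomal bins 20807 (8.45 per Mb). No protein-coding gene started in 82.1% of lost bins and in 86.5% of kept bins. Olfactory receptor genes, which code for odorant receptors of the nose, made up 227 of the 447. Without them the density was 2.02 per Mb in lost bins, 1.85 in kept bins, 6.75 in gained bins and 7.99 over all bins. Of the 1422 protein-coding genes that started in CT24 domains, 447 (31.4%) started in lost bins, and this share is the background for the gene families below.

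The longest domain lost whole, chr4:35600001-39500000, measured 3.9 Mb. It holds the start sites of Lingo2, which codes for a leucine-rich repeat protein of neurons, and of 1700009N14Rik. LADs covered 100% of it in both CT24 libraries and 0% in both CT30 libraries. Coverage was 0% in NS replicate 1, CT0 replicate 1 and CT6 replicate 1, whose grid steps were 61, 47 and 35 kb. In the other 7 libraries, with steps of 4 to 19 kb, it was between 57.2% (CT12 replicate 2) and 96.4% (CT18 replicate 1).

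The second domain, chr10:112000001-114800000, measured 2.8 Mb and behaved differently in the other libraries. It holds Glipr1, Glipr1l1, Glipr1l2 and Glipr1l3, a cluster of CAP-domain protein genes, with Caps2, Atxn7l3b and Kcnc2, a voltage-gated potassium channel of fast-firing neurons. LADs covered 100% and 98.4% of it at CT24 and 0% in both CT30 libraries. All 10 other libraries covered it, from 64.7% in CT0 replicate 1 to 95.2% in CT18 replicate 2. The 3 libraries with steps of 35 kb or more gave 89.2, 64.7 and 93.8%.

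The third domain, chr8:62200001-64600000, holds Spock3, a testican of the extracellular matrix, Sgo2b, a shugoshin, and Tll1, a tolloid-like protease. It was covered at 0% in both CT30 libraries and in the same 3 libraries as the domain of Lingo2, and at 47.0 to 100% in the other 7. The fourth, chr12:42000001-44200000, holds no protein-coding start site. The fifth, chr5:47000001-49100000, holds 5730480H06Rik and Slit2, the ligand of Robo receptors in axon guidance. It was covered at 0% and 93.1% in NS replicates 1 and 2, at 0% and 100% in CT0 replicates 1 and 2, and at 100% and 0% in CT18 replicates 1 and 2. The libraries of these 3 times thus gave opposite calls. At CT6 its cover was 78.1% and 71.8%, and at CT12 it was 100% in both libraries.

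The sixth domain, chr7:103300001-105400000, was the richest in genes, with 110 start sites. Of these, 85 belong to olfactory receptors, with Olfr596, Olfr597 and Olfr598 first in genome order. The same domain holds the beta-globin genes Hbb-bt, Hbb-bs, Hbb-bh2, Hbb-bh1 and Hbb-y and a cluster of Trim genes that includes Trim5 and Trim30a. LADs covered 97.6% and 99.5% of it at CT24, 0% at CT30, 0% in NS replicate 1, CT0 replicate 1 and CT6 replicate 1, and between 72.2% and 99.7% in the other 7 libraries. The globin and Trim genes, and all genes named from the domains that follow, were picked after their values were seen.

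The seventh domain, chr12:37500001-39600000, holds Dgkb, a diacylglycerol kinase, and Etv1, an ETS transcription factor. The eighth, chr5:5800001-7800000, holds Tex47 and the zinc finger gene Zfp804b. The ninth, chr13:25500001-27500000, holds Prl, which codes for the pituitary hormone prolactin, with Hdgfl1 and 10 further genes of the prolactin family, most of them placental, such as Prl3d1 and Prl3b1. It lay 33.3 Mb from the nearest CT30 LAD. CT6 replicate 1 covered the eighth and ninth domains at 100%, whereas NS replicate 1 and CT0 replicate 1 covered both at 0%. The tenth, chr5:15500001-17100000, holds Speer4c and Speer4d, the calcium channel subunit gene Cacna2d1 and Hgf, the gene of hepatocyte growth factor. Of all 39 domains, 14 held no protein-coding start site.

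A few more of the 39 domains are given as examples, picked after they were seen. The sodium channel genes Scn1a, Scn9a and Scn7a and the muscle gene Xirp2 lay in chr2:66300001-67500000. A second olfactory receptor cluster, with 53 of these genes and Neurod4, lay in chr10:129100001-130300000. Nrg3, which codes for a neuregulin, lay in chr14:38200001-39600000, and Magi2, a synaptic scaffold gene, in chr5:18400001-19800000. The domain chr2:138600001-139700000, with Sptlc3 and Ism1, was covered at 77.3 to 100% in all 10 other libraries, and lay 26.4 Mb from the nearest CT30 LAD.

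**Figure D4:**
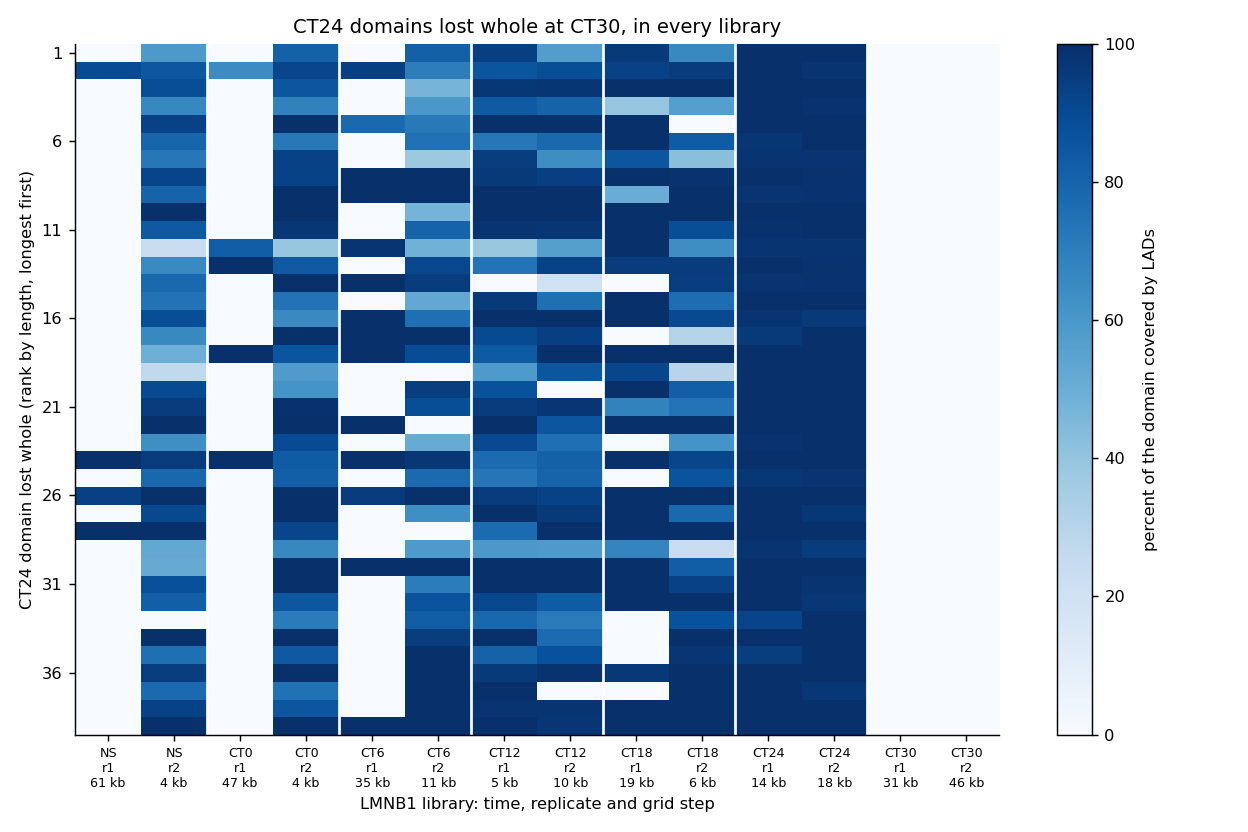
Percent of each of the 39 CT24 domains lost whole (rows, longest first) covered by LADs in each of the 14 libraries (columns, with time, replicate and grid step). Coverage is 0% throughout CT30 by the choice of domains. The columns of NS replicate 1, CT0 replicate 1 and CT6 replicate 1, with steps of 61, 47 and 35 kb, are uncovered at 35, 34 and 25 of the 39 domains.

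The shortened domain with the most lost bins, chr14:80500001-97900000, was also the longest domain, at 17.4 Mb. It lost 89 bins, 51 of them at the end with the higher coordinate, and was covered at 46.2% and 39.7% in the CT30 libraries. Protocadherin genes Pcdh20 and Pcdh9, which code for adhesion proteins, and Klhl1 started in its lost bins. A domain on chromosome 4, chr4:73200001-80400000, lost 45 bins, 44 of them at the end with the lower coordinate. The domain chr16:66100001-72400000 lost 43 bins, 19 at the lower and 24 at the higher end. Robo1, a receptor of SLIT ligands, and Cadm2, a cell adhesion gene, started in its lost bins. That domain was covered at 0% in CT30 replicate 1 and at 31.4% in CT30 replicate 2, so only replicate 2 kept a part of it. The domain chr10:100700001-104900000 lost 29 bins, among them those of Nts, the gene of neurotensin, and the domain chr7:50400001-55600000 lost 23.

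Gene families in CT24 domains were lost in unequal shares, against the background of 31.4%. Of the 576 olfactory receptor genes in CT24 domains, 227 (39.4%) started in lost bins, 142 in bins called in 1 CT30 library and 207 in kept bins. The 227 lie in 6 domains on 6 chromosomes, and 138 of them in the 2 domains lost whole on chromosomes 7 and 10, so they amount to few independent regions. Olfactory receptor genes also weigh on the background itself, as 576 of its 1422 genes and 227 of its 447 genes in lost bins. Of all bins in CT24 domains, 22.9% were lost. Of the 143 vomeronasal receptor genes, which serve pheromone sensing, 9 (6.29%) started in lost bins, namely Vmn2r53, Vmn2r54, Vmn2r55, Vmn2r58, Vmn2r59, Vmn2r60, Vmn2r61, Vmn2r118 and Vmn2r120, and 113 in kept bins. All 10 Klr genes in CT24 domains, Klra1 to Klra10, started in lost bins, in a single domain, chr6:129900001-133900000. They code for Ly49 receptors of natural killer cells.

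The other listed families give small counts. Lost bins held 3 of 12 GABA and glutamate receptor genes, Gabrb1, Gabra4 and Grm5, and 3 of 7 potassium channel genes, Kcnc2, Kcnh7 and Kcnh8. They held 3 of 19 Zfp genes, Zfp551, Zfp606 and Zfp804b, 2 of 6 protocadherins, Pcdh9 and Pcdh20, and 1 of 17 neuronal adhesion genes, Cntnap5c. Slc17a6, a vesicular glutamate transporter, was 1 of 6 solute carriers, and Ugt8a and Sult3a2 were the 2 conjugating enzymes in CT24 domains, both lost. For 3 families the count was 0 lost, with 21 of 23 defensins, 22 of 24 bitter taste receptors and 8 of 9 cadherins in kept bins. Cytochromes P450 (100 autosomal genes), major urinary proteins (22), serpins (60) and keratins (113) had 0 genes in CT24 domains. Over all protein-coding genes, 1422 of 20807 started in CT24 domains, and the 31.4% background does not apply to these 0 counts.

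Of 20 clock genes, 0 started in a lost bin. Over all 20807 protein-coding genes, 447 started in lost bins and 1422 in CT24 domains, so few members of a short list would lie in either. Of the clock genes, 1, Rorb, which codes for a nuclear receptor, started in a CT24 domain, and it was called in CT30 replicate 2 but not in replicate 1. The median distance from a clock gene to the nearest LAD was 4.08 Mb and 5.40 Mb in the CT24 libraries and 6.23 Mb and 7.37 Mb in the CT30 libraries. Over all 20807 genes these medians were 3.23 Mb and 4.06 Mb at CT24 and 5.46 Mb and 6.19 Mb at CT30. Averaged over the 2 libraries of each time, the distance was larger at CT30 for 10 clock genes and smaller for 10. Of 10 autosomal genes of the nuclear lamina, 0 started in a CT24 domain, a count too small to set against the 1422 of all 20807 genes.

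Gained bins form 27 runs, 6 of them a single bin, and 1 run on chromosome 12 holds 65 of the 166 (39.2%). Without that run 101 gained bins remain. The run, chr12:17900001-24400000, measured 6.5 Mb and had a GC content of 44.8%. It holds Adam17, a protease that releases membrane-bound ligands, Ywhaq, a 14-3-3 protein gene, Asap2, Cpsf3, Itgb1bp1, Iah1, 5730507C01Rik, Gm21863, Gm10330 and 9030624G23Rik. LADs covered 99.7% and 100% of it at CT30 and 0% at CT24. It was also covered at 97.2% in NS replicate 1, 79.6% in CT0 replicate 1, 90.2% and 99.8% at CT6, 65.7% in CT12 replicate 2 and 86.6% in CT18 replicate 2. NS replicate 2, CT0 replicate 2, CT12 replicate 1 and CT18 replicate 1 covered it at 0%, so the libraries of NS, CT0, CT12 and CT18 each gave opposite calls.

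The next gained runs were shorter. A run of 1.3 Mb, chr14:43500001-44800000, holds 28 start sites, among them the ribonuclease genes Ear1, Ear2, Ear10, Ang5 and Ang6. A run of 1.1 Mb, chr7:14700001-15800000, holds the oocyte homeobox genes Obox1, Obox2, Obox3 and Obox5. A run of 1 Mb, chr3:32800001-33800000, holds Usp13, Pex5l and Ttc14 and was covered at 100% in both CT30 libraries and at 0% in all 12 other libraries. The fifth run, of 0.9 Mb, lies at chr14:41900001-42800000, and its 20 start sites are predicted or Rik genes. Of the listed families, gained bins held 6 olfactory receptors, among them Olfr1506 and Olfr142, 2 vomeronasal receptors, Vmn1r135 and Vmn1r137, the defensin Defb33, and 2 solute carriers, Slc7a12 and Slc10a2, the last a bile acid transporter. Of 105 CT30 domains, 6 were absent at CT24 as a whole (116 bins), 18 had gained bins at 1 or both ends (50 bins), and 81 had no gained bin. A domain with a gained end can still be shorter than at CT24, since it may have lost bins at its other end.

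The 10 libraries of other times were not used to choose the bins and give an independent reading of them. In the 7 libraries with steps of 4 to 19 kb, 66.4 to 84.2% of lost bins were called, and in the 3 libraries with steps of 35 to 61 kb, 18.6 to 47.2%. These were 71.4% in NS replicate 2, 84.2% in CT0 replicate 2, 66.4% in CT6 replicate 2, 81.7 and 81.1% at CT12, and 81.3 and 72.5% at CT18. The coarser libraries gave 18.6% in NS replicate 1 (61 kb), 29.2% in CT0 replicate 1 (47 kb) and 47.2% in CT6 replicate 1 (35 kb). Every lost-bin share of the 3 coarser libraries is below every share of the 7 finer ones. At NS, CT0 and CT6, the library with the coarser grid of each pair held fewer lost bins than the other. At CT18 the order was reversed, with 81.3% in replicate 1 (19 kb) and 72.5% in replicate 2 (6 kb). Over all bins, 21.1 to 26.5% were called in the 7 libraries with finer grids and 13.5 to 20.2% in the 3 with coarser grids. Gained bins were called at 56.0% in NS replicate 1 and 19.9% in NS replicate 2, and at 41.6% and 2.41% in CT0 replicates 1 and 2, so the coarser library held more of them at these times. At CT6 it held fewer, 56.6% against 76.5%. The shares of gained bins were 10.2% and 54.2% in CT12 replicates 1 and 2, and 27.1% and 78.3% in CT18 replicates 1 and 2.

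Kept bins were also called less often in these 3 libraries. They were called at 95.8 to 99.5% in the 7 libraries with finer grids and at 69.2, 82.3 and 92.0% in NS, CT0 and CT6 replicate 1. Across the 10 libraries, the share of lost bins called fell with log2 grid step (Pearson's r = -0.85, permutation p = 0.00209, adjusted over 2 relations 0.00277). Spearman's rho was -0.75 (permutation p = 0.0153, adjusted 0.0306). Without NS replicate 1 and CT0 replicate 1, the 2 libraries farthest from the median step, r was -0.63. For kept bins r was -0.77 (permutation p = 0.00277, adjusted 0.00277), rho was -0.46 (permutation p = 0.187, adjusted 0.187), and r without the same libraries was -0.44. These permutations treated the 10 libraries as exchangeable. The libraries come in pairs from the same time, and the p-values do not allow for that pairing. The 3 libraries with the coarsest grids are all replicate 1 of the 3 earliest times, so step, time and replicate number are not separate in these data either. No sequencing batch is given, and a value within replicate numbers would rest on 5 libraries.

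**Figure D5:**
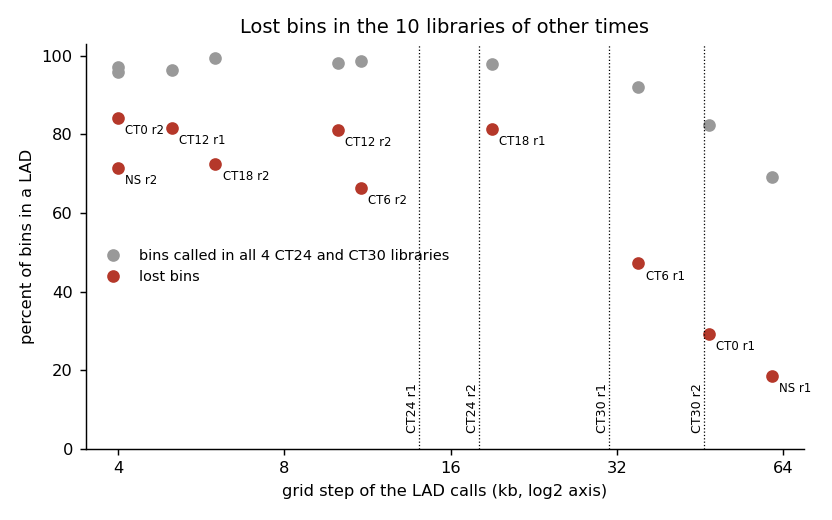
Percent of the 1088 lost bins (red) and of the 2662 kept bins (grey) in a LAD (y axis) against the grid step in kb (x axis, log2 scale), 1 point per library for the 10 libraries of NS, CT0, CT6, CT12 and CT18. Dotted lines mark the steps of the CT24 and CT30 libraries. Lost bins were called at 66.4 to 84.2% at steps up to 19 kb and at 18.6 to 47.2% at 35 kb or more.

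Domains were read in the same way. Of the 39 domains lost whole, those covered over 50% or more of their length numbered 35 in NS replicate 2, 38 in CT0 replicate 2, 32 in CT6 replicate 2, 37 and 36 at CT12, and 30 and 34 at CT18. In NS, CT0 and CT6 replicate 1 they numbered 4, 5 and 14. Of the 63 domains with no lost bin, 39, 40 and 53 were covered to this extent in these 3 libraries and 59 to 63 in the other 7. Of the lost bins, 427 were called in all 7 libraries with finer grids, 450 in none of the 3 with coarser grids, and 146 met both conditions. Only 68 lost bins (6.25%) were called in all 10 libraries, against 1499 kept bins (56.3%), and 13 lost bins were called in none of the 10. Among bins called in 1 CT30 library the share called in all 10 was 29.3%. Kept bins were chosen by calls at CT24 and CT30, and lost bins by calls at CT24 alone. A higher share for kept bins can therefore follow from how the classes were chosen. This division of the libraries by step was made after their values were seen.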

How the data were processed

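LMNB1 ChIP-seq LADs of 4 mice (CT24 and CT30, 2 libraries each) were compared, with 10 libraries of other times as independent readings. Per the labels and the study's methods, the authors mapped reads to mm10 with Bowtie2 2.25.0, removed duplicates with Picard, brought each ChIP and its input to equal depth per chromosome, and ran the domain caller EDD separately on every mouse, with gap penalty and bin size averaged over 10 runs. The deposited values are LAD start and end positions in base pairs, with no score or count, so depth is unknown and precision comes from the 2 libraries per time alone. Input and RNA-seq were not analysed here.

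LADs were counted in 100-kb bins on the chromosome lengths of GRCm38.p6, the assembly of mm10, without the last partial bin of each autosome. No LAD ended beyond a chromosome. Genes are the 20807 autosomal protein-coding genes of GENCODE vM21, placed by start site. Promoter sequences are RefSeq's, and 15687 of 20780 gene symbols had one. As this is under 80%, as is the share among kept genes (517 of 697), promoters of lost and kept bins were not compared. Values are given for lost genes and for all autosomal promoters in the table, and the latter set is incomplete as well. Coverage, LAD number and log2 median size were compared by exact two-sided permutation of 2 libraries against 2. Relations with grid step used two-sided permutation tests with 100000 resamples. Versions were NumPy 2.4.6, SciPy 1.17.1 and Python 3.11.15, and calls and domain classes were tested on simulated LADs.

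The named genes are those in the 10 longest domains lost whole (up to 30 names), listed family members in lost or gained bins, and genes in the 5 longest gained runs. Members, lists and tests were chosen with earlier results of these data known. Alternatives changed the cover needed, bin size, LAD size, grid, chromosomes, libraries and gene placement.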

Additional observations from a re-analysis of the deposited data

Results flagged for a closer look

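Sex chromosomes were outside the comparison, and LADs on them differed between libraries of 1 time point. CT24 replicate 2 had 7 LADs on chromosome Y, over 20.1 Mb, while CT24 replicate 1 and both CT30 libraries had 0. On chromosome X, LADs covered 2.21 Mb in CT24 replicate 2, 10.3 Mb in CT30 replicate 1 and 4.32 Mb in CT30 replicate 2, and 0 Mb in CT24 replicate 1. The labels give both sexes for these mice, and the study's methods give male. With no reads or scores in the files, the source of these calls was not tested.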

How the results depend on the processing

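The count of lost bins was between 1038 and 1105 under other thresholds, bin sizes, LAD sizes, a common grid of 46 kb, chromosome X added, base pairs in place of bins, or without assembly gaps, and 1039 without olfactory receptor bins (chosen after seeing the data). A common grid rewrites the LADs as called and does not repeat the calling. Leaving out libraries gave 1335 to 2240 lost bins, 2240 without CT24 replicate 2 and 1692 without CT30 replicate 2, since fewer libraries then have to agree. Gained bins were 148 to 207 under the same settings and 215 to 448 with a library left out (302 and 276 without CT24 replicates 1 and 2, 448 without CT30 replicate 2). Without the run on chromosome 12, chosen after seeing the data, they were 101. Domains lost whole were 39 to 44, and 46 to 64 with a library left out (64 without CT24 replicate 2). The coverage difference was -176 Mb with LADs of 1 Mb or more, -177 Mb with chromosome X added, and -127 to -240 Mb with a library left out. Genes per Mb of lost bins were 4.49 by gene body, 2.02 without olfactory receptors, and 3.68 to 4.29 with a library left out. The relation with grid step gave r = -0.83 without NS and -0.83 for the lost minus the kept share.

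Replicate numbers are shared between time points, but no label says that a number marks a common mouse, litter or day. With a replicate block, same-numbered pairs had on average 2357 lost and 524 gained bins, more because a pair needs 1 library per time. Coverage differed by -236 and -130 Mb in the pairs (exact sign-flip p = 0.5, the smallest possible). Read depth is unknown, so a LAD missed for lack of reads cannot be told from a LAD that is absent.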

Other observations

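A few genes in lost bins of shortened domains that belong to none of the listed families are given as examples, picked after their places were seen. Fshb, which codes for a subunit of follicle-stimulating hormone, lay on chromosome 2 and was in a LAD in 4 of the 10 libraries of other times. Fshr, which codes for the receptor of that hormone, lay on chromosome 17 and was in a LAD in 9 of the 10. Gnrhr, which codes for the receptor of gonadotropin-releasing hormone, lay on chromosome 5 and was in a LAD in 2 of the 10. Tyr, which codes for the pigment enzyme tyrosinase, lay on chromosome 7 and was in a LAD in 7 of the 10. How many genes of such functions lie in CT24 domains was not counted.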
